A study of Drosophila melanogaster with 3 samples.

Results

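The genes described here are 34 genes of muscle and mesoderm, listed by name and chosen with earlier results of these data known. They comprise 10 regulators of mesoderm and muscle development, 6 genes of myoblast fusion, 15 genes of the contractile apparatus and 3 integrin subunit genes, and all 34 were found among the 13945 protein-coding genes of the annotation. The data are binding sites of tap in Drosophila melanogaster, from 3 biological replicates of whole embryos aged 6 to 16 h, males and females together, of a transgenic line that stably expresses tap with eGFP at its C-terminus. Chromatin was immunoprecipitated with an antibody against GFP and sequenced. This is the only group, and each replicate was set against a control alignment in the authors' peak calling. Whole embryos mix all tissues, so the lists do not say in which cells a site was bound. The lists held 30000 peaks for each replicate, 30000 for the pooled replicates and 4336 in a set thresholded for reproducibility between replicates. No read counts are given, so depth is unknown. The signal of a peak is the authors' own value and is compared only as a rank within a list, with rank 1 the strongest.

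The tap gene encodes a basic helix-loop-helix transcription factor of the neurogenin family, known from the nervous system. Such factors bind E-boxes, words of the form CANNTG. In the fly embryo, mesoderm is specified by transcription factors such as twist and tinman, and its derivatives form heart, gut muscle and body wall muscle. Body wall muscles arise when founder cells fuse with fusion-competent myoblasts through adhesion proteins of the immunoglobulin family. The fused fibres then build sarcomeres of actin, myosin and their regulators, and attach to tendon cells through integrins.

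A peak counted for whichever protein-coding gene had a transcription start site (TSS) closest to its summit. Of the 34 genes, 16 had at least 1 thresholded peak (47.1%), against 18.9% of all protein-coding genes. Taking the 4336 strongest peaks of each replicate in place of the thresholded set, 18, 16 and 17 of the 34 had a peak in replicates 1, 2 and 3 (50.0% ± 2.94, SD, n = 3). No share of all genes is given for these replicate peaks, so the 18.9% belongs to the thresholded set alone. The bound genes were tin, bin, how, Mef2 and mid among regulators, kirre, mbc, rols and sns among fusion genes, sls, Zasp52, Act57B, Act87E and Tm1 among contractile genes, and mew and if among integrin genes. All 16 were also bound in replicate 1, 15 in replicate 2, which lacked sns, and 15 in replicate 3, which lacked bin.

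By role, the contractile genes had the lowest share. A thresholded peak was assigned to 4 of 6 fusion genes (66.7%), 2 of 3 integrin genes (66.7%), 5 of 10 regulators (50.0%) and 5 of 15 contractile genes (33.3%). In the replicates the means were 61.1% ± 9.62 for fusion genes, 88.9% ± 19.2 for integrin genes, 56.7% ± 5.77 for regulators and 33.3% ± 0.00 for contractile genes (SD, n = 3). The same 5 contractile genes were bound in the thresholded set and in every replicate, though not always by the same peak. In replicate 3 Tm1 counted through another summit, of rank 2624, and its thresholded peak ranked 9531. In each of the 3 replicates the contractile share lay below that of each other role. The replicates score the same genes, so their SD does not measure the spread of a share over genes. No share of all genes is given beside these replicate shares. With 6, 3, 10 and 15 genes, 1 gene is a large part of each share, and no test of a difference between roles was made.

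**Figure D1:**
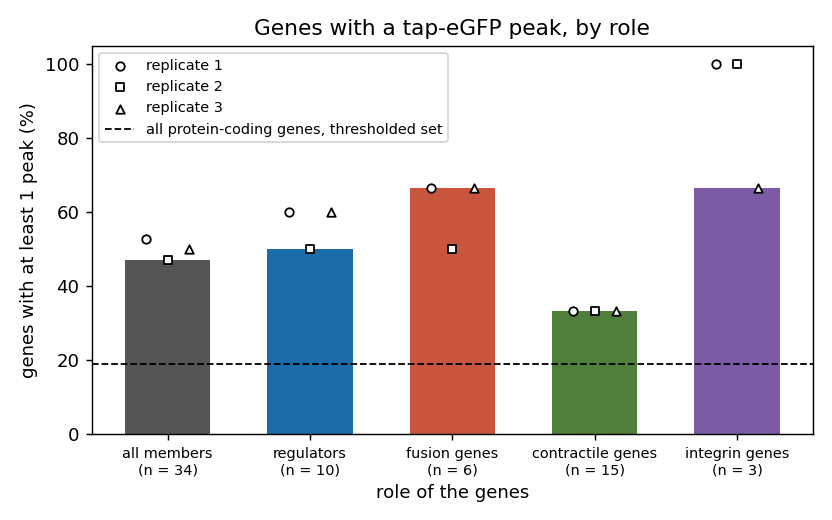
Percentage of genes with at least 1 peak (vertical axis) for all 34 genes and for each role, with bars for the thresholded set and symbols for the strongest peaks of each replicate. The dashed line marks 18.9%, the share of all protein-coding genes in the thresholded set. All bars stand above it, and the contractile genes, at 33.3%, are the lowest. The line takes no account of the length of genome nearest to a gene. Its median was 16.1 kb for contractile genes and 4.25 kb for all genes.

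A gene with a longer stretch of genome nearest to it can collect more peaks, and the share of genes with a peak rose with this length. The median was 15.2 kb for the 34 genes and 4.25 kb for all genes. When all genes were put into 5 equal classes of this length, the share with a thresholded peak was 7.89%, 11.1%, 13.9%, 23.3% and 38.5% from the shortest class to the longest. The 34 genes lay in the longer classes, with 20 in the longest, of which 11 had a peak (55.0%), and 11 in the next, of which 5 had a peak (45.5%). The remaining 3, nau, Mlc1 and Mlc2, lay in shorter classes and had none. Per 100 kb of nearest genome, the thresholded set held 4.76 peaks for the 34 genes and 3.24 for all genes. The rate was 14.2 for integrin genes, 8.96 for fusion genes, 3.13 for regulators and 2.35 for contractile genes. In the thresholded set the regulators thus lay near the rate of all genes and the contractile genes below it. In the replicates it was 12.3 ± 1.64, 7.28 ± 0.560, 4.77 ± 1.57 and 2.46 ± 0.513 in the same order (SD, n = 3). The regulators, at 3.13 to 6.26 in the replicates, lay on either side of the rate of all genes, and the contractile genes, at 2.02 to 3.02, below it. The part of the length in the shares by role was not tested.

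The 34 genes received 35 thresholded peaks, and 34, 34 and 38 among the strongest of replicates 1, 2 and 3 (35.3 ± 2.31, SD, n = 3). At least 2 thresholded peaks were assigned to 8 of the 34 genes (23.5%), against 6.03% of all genes, and at least 5 to kirre and rols (5.88%), against 0.817% of all genes. Fusion genes held 16 of the 35 peaks, regulators 7, contractile genes 7 and integrin genes 5. A summit within 500 bp of the gene's own TSS was found for 9 of the 34 genes (26.5%), against 10.7% of all genes.

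**Figure D2:**
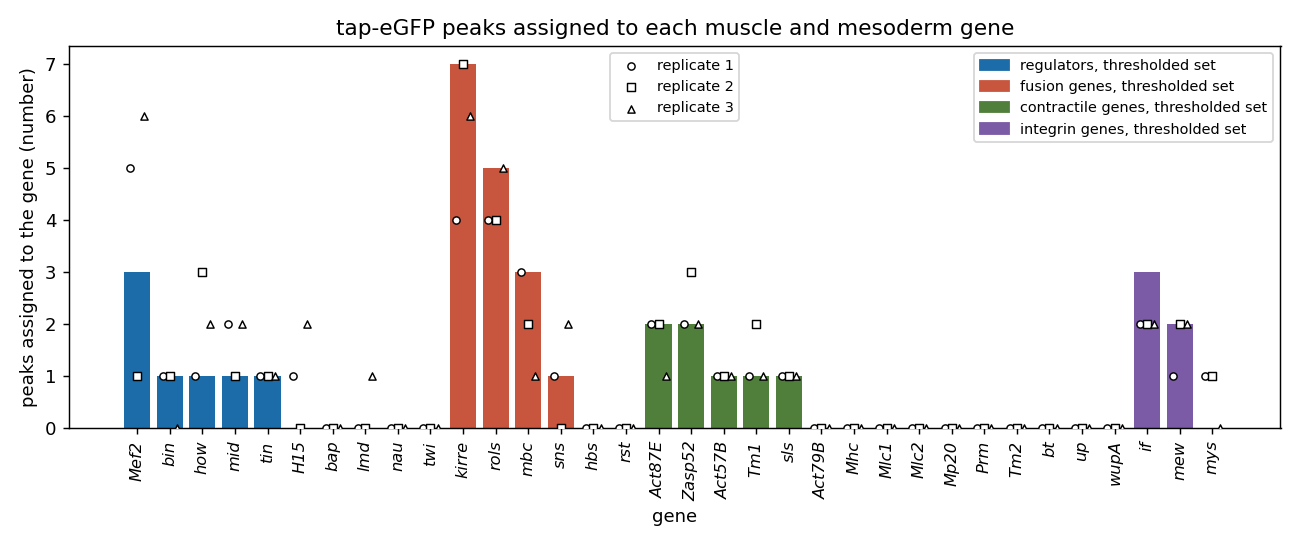
Number of peaks assigned to each of the 34 genes (horizontal axis), with bars for the thresholded set, coloured by role, and symbols for the strongest peaks of replicates 1, 2 and 3. kirre leads with 7 thresholded peaks and rols follows with 5, and 18 genes have none.

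Most of these peaks were away from promoters. Introns held 21 of the 35 (60.0%), against 39.4% of all thresholded peaks. Another 9 lay within 500 bp of a TSS (25.7%, 95% Wilson interval 14.2 to 42.1), against 41.2% of all thresholded peaks, a value inside that interval. The remaining 5 were intergenic, and none lay in a coding exon or a UTR outside the promoter windows. In the replicates the promoter share was 29.4%, 23.5% and 15.8% (22.9% ± 6.83, SD, n = 3). The median distance to the nearest TSS was 3894 bp for these peaks and 1144.5 bp for all thresholded peaks. The interval counts peaks as units, although the 7 peaks of kirre share 1 gene. By role, introns held 81.2% of the fusion peaks, 80.0% of the integrin peaks, 42.9% of the regulator peaks and 14.3% of the contractile peaks. Of the 7 contractile peaks, 3 lay within 500 bp of a TSS (42.9%) and 3 were intergenic.

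**Figure D3:**
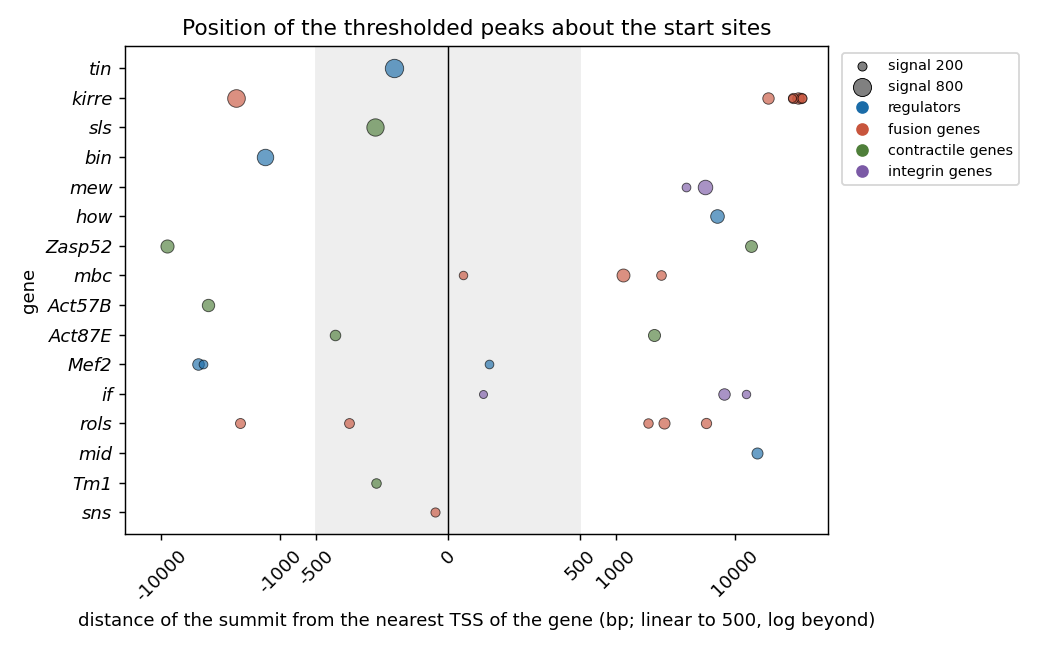
Distance of each of the 35 thresholded summits from the nearest TSS of its gene (horizontal axis, in bp, linear to 500 and logarithmic beyond; negative is upstream). Each circle is a peak, with its area in proportion to the signal and its colour giving the role; the shaded band is the promoter window, which holds 9 peaks.

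The sequences at the 5 genes with the strongest peaks show what these sites look like. Each window spans the summit and 100 bp to either side, read from the RefSeq genome on the plus strand of dm6. None overlaps an annotated UTR, and capitals mark E-boxes.
tin, chr3R:21378672-21378872: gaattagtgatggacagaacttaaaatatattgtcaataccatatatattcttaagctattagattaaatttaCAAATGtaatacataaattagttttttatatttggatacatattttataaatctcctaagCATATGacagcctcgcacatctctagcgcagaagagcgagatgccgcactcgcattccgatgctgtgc
kirre, chrX:3097101-3097301: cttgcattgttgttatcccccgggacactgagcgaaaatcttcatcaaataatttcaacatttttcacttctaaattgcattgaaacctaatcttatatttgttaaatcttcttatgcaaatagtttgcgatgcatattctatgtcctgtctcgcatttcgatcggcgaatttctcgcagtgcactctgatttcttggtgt
sls, chr3L:2115788-2115988: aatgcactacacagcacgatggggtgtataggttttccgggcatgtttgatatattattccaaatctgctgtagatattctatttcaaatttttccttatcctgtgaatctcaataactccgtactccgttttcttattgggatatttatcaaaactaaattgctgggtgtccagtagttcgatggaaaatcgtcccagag
bin, chr3L:6989199-6989399: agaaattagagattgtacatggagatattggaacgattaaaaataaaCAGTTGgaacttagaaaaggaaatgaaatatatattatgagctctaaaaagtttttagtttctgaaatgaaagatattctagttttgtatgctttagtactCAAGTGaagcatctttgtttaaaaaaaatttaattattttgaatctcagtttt
mew, chrX:13251451-13251651: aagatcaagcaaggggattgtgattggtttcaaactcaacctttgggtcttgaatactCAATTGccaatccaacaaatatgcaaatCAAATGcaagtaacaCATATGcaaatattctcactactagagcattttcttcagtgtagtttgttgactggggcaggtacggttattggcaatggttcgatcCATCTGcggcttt

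These windows are rich in A and T: in the 100 bp about the summit the GC content was 24.0% at tin, 27.0% at kirre, 29.0% at sls, 25.0% at bin and 32.0% at mew. Over all 35 peaks it was 31.3% ± 8.34, and over all thresholded peaks 32.4% ± 9.63 (SD over peaks). The windows of kirre and sls hold no E-box. That of tin holds CAAATG, starting 27 bp before the summit, and CATATG, starting 33 bp after it. That of bin holds CAGTTG and CAAGTG, and that of mew holds 4 E-boxes, among them CATATG, which starts 1 bp after the summit. A match is only a description of the letters in the window.

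An E-box of any kind was within 100 bp of 24 of the 35 summits (68.6%), against 59.8% of all thresholded summits. The word CAAATG was in 12 of the 35 (34.3%, against 18.8%), at tin, Mef2, mid, kirre, rols, Act57B, Zasp52, if and mew. CATATG was in 3 (8.57%, against 8.35%), CAGCTG in 2 (5.71%, against 7.24%) and CAGATG in 1 (2.86%, against 7.31%). CAACTG and CAAGTG were each in 5 (14.3%, against 10.2% and 11.2%). CAATTG and CACATG were each in 4 (11.4%, against 8.46% and 8.10%). CACCTG and CACGTG were each in 1 (2.86%, against 4.08% and 1.85%). Among other words read on either strand, CACTTGA, a core of the sites bound by tinman, was in 3 (8.57%, against 3.44%), at bin, kirre and if, and it contains the E-box CACTTG. TATTTATA, a core sequence of sites bound by MEF2 proteins, was in 4 (11.4%, against 8.88%), and the related core TAAAAATA was in 3 (8.57%, against 10.8%). GAGAG, the word bound by GAGA factor, was in 7 (20.0%, against 23.2%). Counts this small change by several percent with 1 peak, and the words were not tested.

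The strongest peak among regulators, and among all 34 genes, was that of tin, an NK homeobox gene of the heart and dorsal mesoderm. It had a signal of 828.1 and rank 264 of 4336, and lay at 3R from 21378620 to 21378910, its summit 205 bp upstream of the TSS. Its ranks were 234, 332 and 334 in replicates 1, 2 and 3 (mean 300 ± 57.2, SD, n = 3), the smallest SD among the 35 peaks. It was the only peak of tin in the pooled list and in each replicate list. The NK homeobox gene bap, which acts in visceral mesoderm, had no peak in any of these lists.

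The forkhead gene bin, also of visceral mesoderm, had an intergenic peak 1323 bp upstream of its TSS, at 3L from 6989127 to 6989512 (signal 664.4, rank 429). It ranked 350 and 239 in replicates 1 and 2 but 4343 in replicate 3, just outside the strongest 4336 of that list. The peak of how, which encodes an RNA-binding protein of muscle and tendon cells, lay in its own intron, 7063 bp downstream of a TSS (signal 457.6, rank 844). Its ranks were 1067, 992 and 559 in replicates 1, 2 and 3 (mean 873 ± 274, SD, n = 3).

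Mef2, the MADS-box regulator of muscle differentiation, had 3 peaks. The strongest lay in an intron 4892 bp upstream of the nearest TSS, with a signal of 329.5 and rank 1421, and ranked 1734, 1112 and 1808 in the replicates. A weaker one stood 433 bp away, with a signal of 188.4, and had no match in replicate 2. The last, 156 bp downstream of a TSS, had a signal of 185.0 and ranked 2679, 11403 and 1910. Counting all strong peaks and not only matches to these 3, replicates 1 and 3 gave Mef2 5 and 6, and replicate 2 gave 1. The single peak assigned to mid, a T-box gene of the heart, was intergenic, 15215 bp from the TSS and 9244 bp beyond the 3' end of the gene (signal 302.1; ranks 2085, 2194 and 1319). A noncoding RNA gene had a TSS nearer to it, at 10051 bp. H15, a related T-box gene on the same arm, had no thresholded peak. Its best pooled peak had a signal of 151.9, just under the lowest thresholded signal of 153.4, and it had a peak among the strongest of replicates 1 and 3.

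Among the fusion genes kirre had the most peaks. Its nearest genome, 97.3 kb, was the longest of the 34 genes. Per 100 kb of it kirre had 7.19 peaks, fewer than mbc (27.0) and rols (21.9) and more than sns (5.92). The protein encoded by kirre is an adhesion protein of founder cells. Its gene spans 394 kb of X, and rst, the gene of a related adhesion protein, lies within that span. The strongest of its 7 peaks (signal 764.6, rank 325) lay at X from 3097089 to 3097330, in an intron 2349 bp upstream of the nearest TSS. It ranked 482, 367 and 201 in replicates 1, 2 and 3 (mean 350 ± 141, SD, n = 3).

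The other 6 peaks of kirre, with signals of 157.2 to 321.2, lay 18945 to 36691 bp downstream of another TSS, also in introns. Over all 7 the gaps between neighbouring summits ran from 1003 to 71459 bp. Replicates 1, 2 and 3 gave kirre 4, 7 and 6 strong peaks. The weakest of the 7 ranked 4380, 3754 and 10043, so only replicate 2 had it among its strongest. No thresholded peak was assigned to rst; its best pooled peak, 117 bp from a TSS, had rank 8534.

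The gene rols encodes an adaptor protein of founder cells that acts in fusion, and its 5 peaks fell within 12184 bp of one another about its start sites. The strongest (signal 304.9, rank 1601) lay in an intron 2533 bp downstream of a TSS, at 3L from 12053822 to 12053986. It ranked 1488, 3333 and 1194 in replicates 1, 2 and 3, the lowest in replicate 2. The other 4 had signals of 220.5 to 261.0, and 1 of them stood 376 bp upstream of a TSS. The weakest ranked 4718, 5733 and 1425, so only replicate 3 had it among its strongest.

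**Figure D4:**
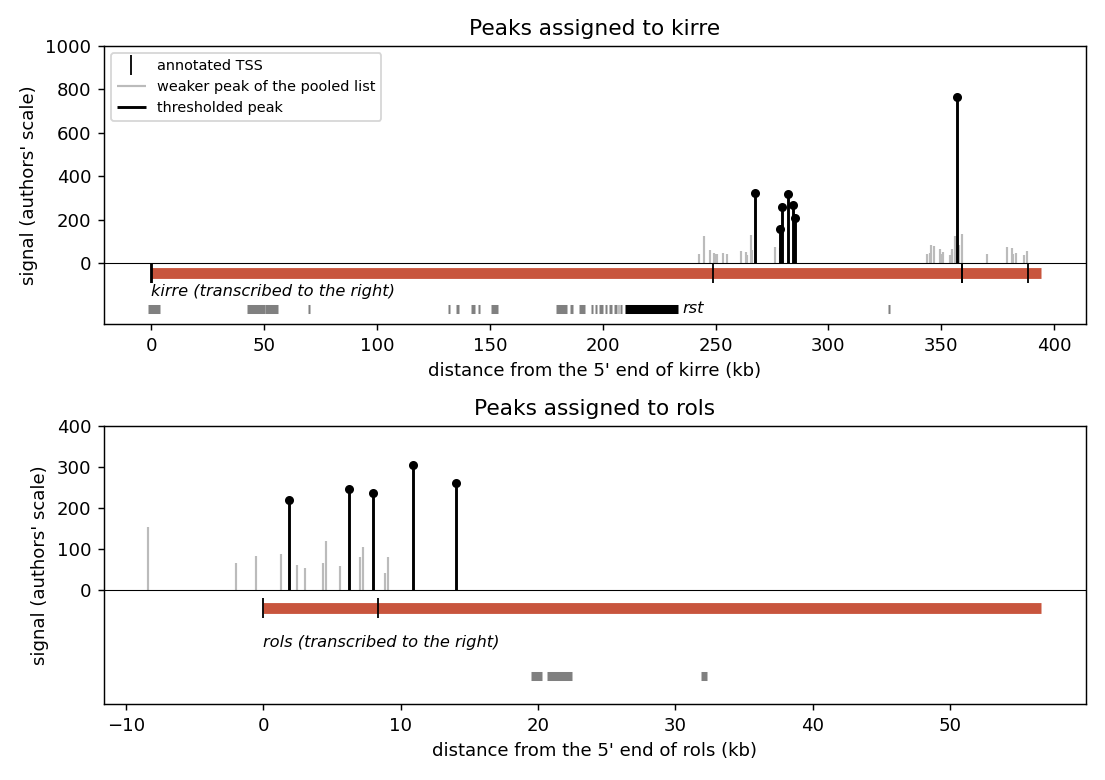
Signal of the peaks assigned to kirre (top) and rols (bottom) against the distance from the 5' end of the gene, in kb. Black stems are thresholded peaks and grey stems weaker peaks of the pooled list; the coloured bar is the gene with its annotated TSSs as ticks, and the bars below are other genes that overlap it, with rst in black. The 7 thresholded peaks of kirre form a group of 6 and a stronger single peak, and the 5 of rols lie around its 2 TSSs.

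Of the other fusion genes, mbc, whose product activates Rac during fusion, had 3 peaks within 2324 bp at the start of the gene. The strongest (signal 412.4, rank 1009) lay in an intron 1145 bp downstream of the TSS and ranked 1245, 849 and 1492. The one 55 bp downstream of the TSS had a signal of 177.6 and ranked 3594, 5557 and 10766, among the strongest of replicate 1 alone. The peak of sns, which encodes an adhesion protein of fusion-competent myoblasts, was at its promoter, 50 bp upstream of the TSS. It had a signal of 206.5 and ranked 2489, 5616 and 3458. Its GC content of 59.0% was the highest of the 35 summits. The related gene hbs had no thresholded peak, and its only pooled peak, 57 bp from the TSS, had rank 9462.

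Among contractile genes the strongest peak was that of sls, which encodes a titin-like protein of the sarcomere. It lay 277 bp upstream of the TSS, at 3L from 2115758 to 2116027, and its signal of 738.3 gave it rank 345. Its ranks were 357, 521 and 241 in replicates 1, 2 and 3 (mean 373 ± 141, SD, n = 3). Like that of tin, it was the only pooled peak of its gene. Zasp52, which encodes a protein of the Z-disc, had a peak in its own intron 8944 bp upstream of the nearest TSS (signal 424.9; ranks 1388, 885 and 933) and another 119 bp beyond its 3' end (signal 347.2; ranks 1623, 2534 and 608).

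The actin genes Act57B and Act87E of larval muscle had peaks outside the genes. That of Act57B lay 4043 bp upstream (signal 377.4; ranks 1148, 2016 and 613). Act87E had a peak 137 bp beyond its 3' end (signal 359.7; ranks 1371, 1429 and 1176, mean 1325.3 ± 133, SD, n = 3) and another 428 bp upstream of the TSS (signal 273.5), which ranked 1784 and 1218 in replicates 1 and 2 but 17331 in replicate 3. The third muscle actin gene of the list, Act79B, had no thresholded peak. Tm1, 1 of the 2 tropomyosin genes, had a peak 273 bp upstream of a TSS (signal 225.2) that ranked 3853, 1678 and 9531, and Tm2 had none.

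The integrin genes mew and if encode the alpha subunits PS1 and PS2. The strongest peak of mew (signal 518.4, rank 678) lay at X from 13251402 to 13251636, in its own intron 5632 bp downstream of a TSS. It ranked 841, 1068 and 367 in replicates 1, 2 and 3 (mean 759 ± 358, SD, n = 3). A weaker intronic peak of mew had a signal of 187.5. The strongest of 3 peaks of if was also intronic, 7993 bp from the TSS (signal 325.9; ranks 1461, 1098 and 2242). Its other peaks were uneven. That with a signal of 176.4 ranked 2673, 3764 and 28103. That at the promoter, with a signal of 157.4, was among the strongest of 0 of 3 replicates and had no match in replicate 2. The gene of the beta subunit, mys, had no thresholded peak. Its best pooled peak, 32 bp from the TSS, had a signal of 150.5 and rank 4456, and it had a peak among the strongest of replicates 1 and 2.

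**Figure D5:**
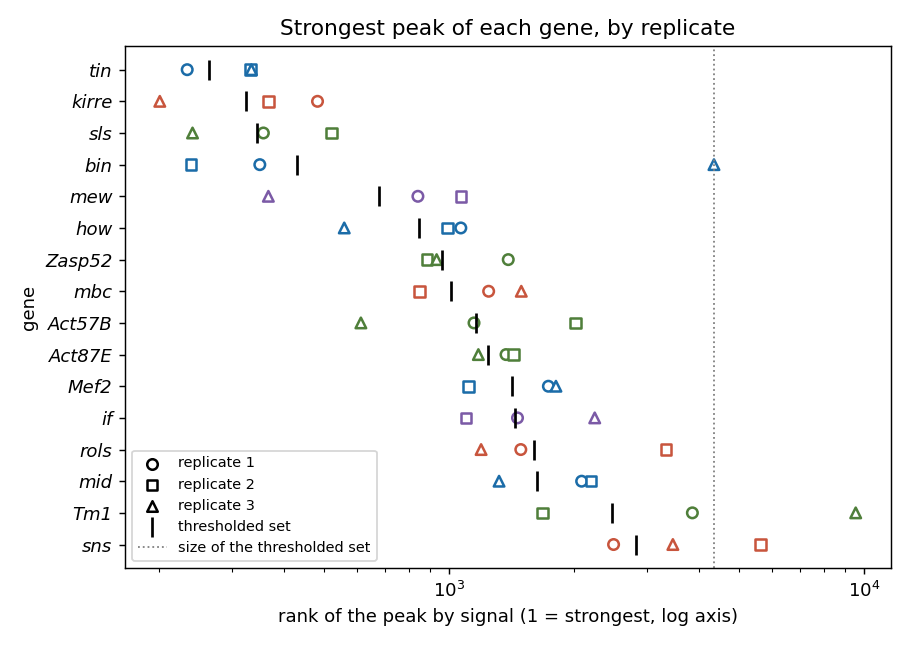
Rank of the strongest thresholded peak of each of the 16 bound genes (horizontal axis, logarithmic, 1 is the strongest) in the thresholded set (black bar) and in replicates 1, 2 and 3 (symbols, coloured by role). The dotted line marks 4336, the size of the thresholded set; bin in replicate 3, Tm1 in replicate 3 and sns in replicate 2 lie beyond it.

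The best peaks of the 16 bound genes had ranks of 264 to 2823 with a median of 1083.5, and those of all genes with a thresholded peak had a median of 1729. By role the median best rank was 844 for regulators, 1305 for fusion genes, 1158 for contractile genes and 1059 for the 2 integrin genes. Of the 35 peaks, 19 were among the strongest of all 3 replicates (54.3%), against 49.4% of all thresholded peaks. A further 12 were so in 2 replicates, 3 in 1 and 1 in 0. Replicates 1 and 2 each had 29 of the 35 among their strongest (82.9%), against 82.9% and 81.3% of all thresholded peaks, and replicate 3 had 26 (74.3%, against 67.2%).

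The other 18 genes had no thresholded peak: twi, bap, nau, lmd, H15, rst, hbs, Mhc, Mlc1, Mlc2, Act79B, up, wupA, bt, Prm, Mp20, Tm2 and mys. In the pooled list 14 of them had a weaker peak, so that 30 of the 34 genes had some peak there (88.2%), against 48.2% of all genes. After H15 and mys, the best was that of bt, which encodes projectin, at rank 6935 and 25 bp from a TSS. Those of nau, the MyoD homologue, and of lmd, a regulator of fusion-competent myoblasts, were at ranks 17196 and 11671. In replicate 3 lmd had a peak of rank 2974, while its best rank in replicate 1 was 15044 and replicate 2 listed none.

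Of the core sarcomere genes, those of muscle myosin heavy chain, Mhc, and of myosin light chain 2, Mlc2, had their best pooled peaks at ranks 23125 and 25655, near the end of the list. Those of the troponin genes up and wupA were at ranks 19426 and 12117, and those of Mp20, Act79B and Tm2 at 19099, 14026 and 13118. Mlc1 and the paramyosin gene Prm had no pooled peak, though 2 replicates listed each of them at ranks of 13211 to 26716. The bHLH gene twi, the mesoderm determinant, had no peak in the pooled list or in any replicate list.

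Other genes of the same roles also included many with peaks. Of 67 such genes fixed as a further list, 65 were in the annotation by symbol, without Arf51F and Unc-89, and 26 had a thresholded peak (40.0%), against 18.9% of all genes. Their median nearest genome length was 13.4 kb. The counts were 12 of 25 regulators (48.0%), 2 of 9 fusion genes (22.2%), 4 of 17 contractile genes (23.5%) and 8 of 14 attachment genes (57.1%). In this list contractile genes had a lower share than regulators and attachment genes, but not than fusion genes. The share of fusion genes was 22.2% here, against 66.7% in the list above. This list was also chosen with earlier results known and set against the same peaks, so it is not an independent check.

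The regulators with peaks were led by the T-box gene org-1, at its promoter (signal 950.0, rank 198), and zfh1 (771.3, rank 319). Both the FGF ligand genes ths (663.6) and pyr (157.5), their receptor gene htl (268.8) and the gene of its adaptor, stumps (546.3), had peaks. The T-box genes Doc2 (466.7) and Doc1 (389.5), Poxm (432.2), kn (342.7), Dr (257.8) and slou (186.2) followed. Of the attachment genes, those of the integrin-linked proteins PINCH, stck (662.5, 4 peaks), vinculin, Vinc (494.0), and talin, rhea (446.6, 5 peaks), had peaks, as had the laminin genes LanA (424.7) and LanB1 (196.3), the tendon factor gene sr (380.3), Tsp (244.1) and kon (235.4). The bound contractile genes were Msp300 (848.9), tmod (501.8), Zasp66 (281.5) and TpnC47D (188.6), and the bound fusion genes siz (499.7) and Vrp1 (239.4). The peak of Msp300 ranked 202, 119 and 16890 in replicates 1, 2 and 3. That of Vinc had no match in replicate 2 and that of TpnC47D none in replicate 3. The peak of pyr, of rank 4169 and 10780 bp from the TSS, ranked 4378, 5257 and 7121 in replicates 1, 2 and 3. It was thus not among the strongest peaks of any replicate.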

How the data were processed

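Chromatin immunoprecipitation with an antibody against GFP was sequenced in 3 biological replicates; library fragments were 200 to 800 bp per the labels. The notes deposited with each sample say that each replicate list was made from that replicate's alignments and a control alignment, a pooled list from all 3, and that the irreproducible discovery rate then selected the thresholded set. No source used here names the aligner, the peak caller, versions or the threshold. Each list gives per peak a signal value as the authors' peak caller made it, used here as a rank within its list. The replicate lists have a fixed length, so their length says nothing of depth.

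Coordinates are in dm6 per the labels. Genes and TSSs came from Ensembl release 115 (BDGP6) and sequence from the RefSeq copy of that assembly; no peak ended beyond its chromosome arm. Each summit went to the gene with the closest protein-coding TSS. A summit within 500 bp of any TSS, transposable elements excepted, was promoter-proximal. For the spread between replicates, each replicate contributed its 4336 strongest peaks. A thresholded peak was matched to the strongest replicate summit within 200 bp. Words were searched within 100 bp of summits on both strands. Intervals are Wilson intervals at 95% and cover only the sampling of peaks. Assignment was checked on made-up start sites. Python 3.11.15, pandas 2.3.3 and scipy 1.17.1 were used.

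The genes, their roles and the further list of genes were chosen with earlier results of these data known, so no test of a list was made and shares are set beside those of all genes. Every listed gene is accounted for, and each bound one is given by its strongest peak. Alternatives were a distance limit, gene bodies, start sites of all genes, the stronger peaks alone, other promoter windows and leaving out each replicate.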

Additional observations from a re-analysis of the deposited data

How the results depend on the processing

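The count of 16 bound genes of 34 stayed within 1.5 times under all 7 alternatives, at 13 with summits limited to 5000 bp from the TSS, 14 with gene bodies extended by 1000 bp, 15 with start sites of all genes, 14 with the 2168 strongest peaks, and 13 to 15 when a replicate was left out and peaks were kept only where both others had them. The share of all genes was 16.5%, 22.7%, 17.0% and 11.4% under the first 4, and 12.1% to 14.8% without a replicate. Leaving out replicate 1 lost Tm1, bin and sns, replicate 2 Tm1 and bin, and replicate 3 sns. Regulators fell to 3 of 10 within 5000 bp, without how and mid, and to 3 with gene bodies, without bin and mid. The 35 peaks became 47 with gene bodies and 34 with start sites of all genes. They became 21 within 5000 bp, 21 in the stronger part of the set, and 22 to 25 without a replicate, where replicates 1 and 2 each left 22. The promoter share of 25.7% became 11.4% with a 200 bp window, 14.3% in the stronger peaks and 13.6% to 22.7% without a replicate, the lowest without replicate 1. The median best rank became 1242 within 5000 bp. Most of these settings keep fewer peaks, though the 200 bp window and gene bodies do not, and the cause of these changes was not tested. Fusion, contractile and integrin counts stayed within 1.5 times of 4, 5 and 2.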
